A study of Sus scrofa with 40 samples.

Results

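Solute carriers (SLC) are the membrane proteins that move sugars, phosphate, ions, drugs, amino acids and vitamins across the cell surface, and the SLC25 family moves metabolites across the inner mitochondrial membrane. In the kidney they carry out most reabsorption and secretion: the proximal tubule of the cortex recovers glucose, phosphate and amino acids and secretes organic ions, the thick ascending limb recovers salt, and intercalated cells of the collecting duct exchange chloride for bicarbonate. Many of these carriers are driven by the sodium gradient, which the sodium pump maintains at the cost of ATP, so they are of interest in a kidney that has lost its blood supply.

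Members were all gene symbols on a porcine kidney array that begin with SLC, a family number, A and a member number, or with SLCO and a number. The rule found 160 of the 7909 symbols, held by 178 of 35955 transcript identifiers and 302 of 43803 spots. SLC9A3R1 and SLC9A3R2 match the rule by name but encode scaffold proteins that bind transporters rather than carriers, and they were kept. Where a symbol had several identifiers (17 symbols), the one with the highest mean signal stood for it. Of the 160 symbols, 131 were well above background on all 40 arrays, 140 were so on all 5 arrays of at least 1 group, 10 were so on some arrays but on all 5 of no group, and 10 were so on none (SLC18A1, SLC1A3, SLC22A3, SLC24A4, SLC26A3, SLC36A2, SLC44A1, SLC7A3, SLC8A3 and SLCO1A2). All 160 stayed in the tests.

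The kidneys came from Large White pigs aged 3 months, and a biopsy of cortex (C) and one of corticomedullary junction (CMJ) was hybridised in 4 conditions, with 5 arrays in each of the 8 groups. Control kidneys (Ctl) were sampled as soon as they were removed. Warm ischemia kidneys (WI) stayed clamped for 60 min at 37 °C before sampling. A further 5 kidneys had the same clamping, were flushed with cold University of Wisconsin preservation solution and kept in it at 4 °C, and were sampled at 6 h (WI+CS6h) and again at 24 h (WI+CS24h), so 15 kidneys stand behind the 40 arrays and no group was reperfused. The p-values therefore measure the spread between arrays of 5 kidneys a group, and the 6 h and 24 h groups are not independent of each other.

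Values are log2 signals of 60-base probes, quantile normalized over the 40 arrays, and a difference is a log2 fold change ± its standard error (SE) from limma with 5 arrays a group. A member was called where its Benjamini-Hochberg adjusted p over all identifiers was under 0.05 and its log2 fold change was at least 0.5 in size. Signals of different genes come from different probes and are not comparable as amounts of RNA. The height of a signal was used only to choose the identifier of a symbol and the example of a class. In a piece of tissue, fewer cells of a type and less RNA per cell cannot be told apart.

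The share of spots well above background ran from 57.0% to 69.9% per array, and its mean was lowest in WI+CS6h-C (62.5%, against 66.3% in Ctl-C). Both tubule markers analysed were present in the tissue: SLC34A1, the proximal tubule sodium-phosphate carrier NaPi-IIa, and SLC12A1, the thick ascending limb cotransporter NKCC2, were well above background on all 40 arrays. SLC5A2 was not analysed here. Of 8 measured proximal tubule markers outside the SLC genes, 8 were well above background in every group, and their summed linear signal ran from 160700 to 251200 over the arrays. Of these 8, GGT1, a brush border peptidase, rose in cortex at 6 h and 24 h of cold storage against Ctl (0.63 and 0.66), and PDZK1, a scaffold of brush border carriers, rose in CMJ at 6 h (0.54). No other was called against Ctl, and their part in the rises of SLC22A2 and SLC22A8 was not tested. Among markers of other cells, 2 of 5 for podocytes, 5 of 6 for endothelium, 6 of 10 for leukocytes, 7 of 8 for adipocytes and 1 of 7 for erythrocytes were on the array. Each array was one of 4 on its slide and each slide held several groups, so a slide term could be added to the model, but only 2 or 4 slides held both groups of a comparison.

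The probes of SLC25A27, SLC22A2 and SLC5A1 carry the main findings and are shown 5′ to 3′ in lower case, with no base marked, so that a reader can see which stretch of each transcript the signal stands for. They are the array's own designed sequences, and positions are counted along the transcript named by the array. SLC25A27, the largest fall, rests on 1 probe (transcript NM_001195115, bases 1076 to 1135). SLC22A2, the steadiest rise, has 3 probes, of which the one with the smallest and the one with the largest change are printed (NM_213902, bases 1345 to 1404 and 1624 to 1683). SLC5A1, the clearest difference between the tissues, has 5 probes, and the first and second along the transcript are printed (NM_001164021, bases 761 to 820 and 1932 to 1991).
SLC25A27: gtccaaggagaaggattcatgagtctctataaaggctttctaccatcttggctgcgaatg
SLC22A2 probe 1: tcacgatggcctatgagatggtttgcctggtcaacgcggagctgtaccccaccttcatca
SLC22A2 probe 2: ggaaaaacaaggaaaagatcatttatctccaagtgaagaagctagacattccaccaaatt
SLC5A1 probe 1: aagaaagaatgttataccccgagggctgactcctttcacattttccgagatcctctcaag
SLC5A1 probe 2: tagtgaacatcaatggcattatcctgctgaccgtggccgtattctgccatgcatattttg

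Warm ischemia alone moved no carrier past the threshold. In cortex 0 of 160 members were called against Ctl-C, where 0.0946% of all identifiers were called, and 11 members had an unadjusted p under 0.05 in limma (6.88%, beside 4.89% of all identifiers). In CMJ 0 were called, where 0.687% of all identifiers were, and 21 had an unadjusted p under 0.05 (13.1%, beside 12.3%). The closest was SLC4A2, the chloride-bicarbonate exchanger AE2, whose difference in CMJ was 0.44 with an adjusted p of 0.0448 and stayed under the fold threshold. The median member differed by 0.08 in cortex, beside 0.01 over all identifiers and 0.05 over those with a gene symbol, and by 0.07 in CMJ, beside -0.01 and 0.02.

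After cold storage 13 members were called in at least 1 comparison with Ctl, and 3 of them were called in both tissues at both times: the organic cation carrier SLC22A2 rose, and the mitochondrial carrier SLC25A27 and the glutamine carrier SLC38A1 fell. In cortex at 6 h 6 members were called (3.75% of members, beside 4.02% of all identifiers), 3 of them higher and 3 lower, where 1.63% of all identifiers were higher and 2.39% lower. In cortex at 24 h 5 were called (3.12%, beside 2.5%), 3 higher and 2 lower, beside 1.04% and 1.46%. In CMJ at 6 h 9 were called (5.62%, beside 3.19%), 6 higher and 3 lower, beside 1.35% and 1.84%. In CMJ at 24 h 9 were called (5.62%, beside 3.65%), 6 higher and 3 lower, beside 1.35% and 2.3%. Among identifiers that carry a gene symbol, as all members do, the background was 4.61%, 3.14%, 3.35% and 3.6% in these comparisons. The shares lie near the background in cortex and some way above it in CMJ, and nothing about the family as a whole is read from them. The median member difference in cortex was 0.14 at both times, beside 0.05 and 0.01 over all identifiers and 0.11 and 0.09 over those with a gene symbol. In CMJ it was 0.09 and 0.06, beside -0.01 and 0.00 over all and 0.02 and 0.03 over those with a symbol. All 4 comparisons set 2 times of the same kidneys against the same control arrays of a tissue, so they are given side by side and not as independent evidence. Of the 60 calls of a member in any comparison described here, 28 were kept with a slide term, 26 on the authors' deposited values and 18 after another background correction (normexp), and none changed direction.

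**Figure D1:**
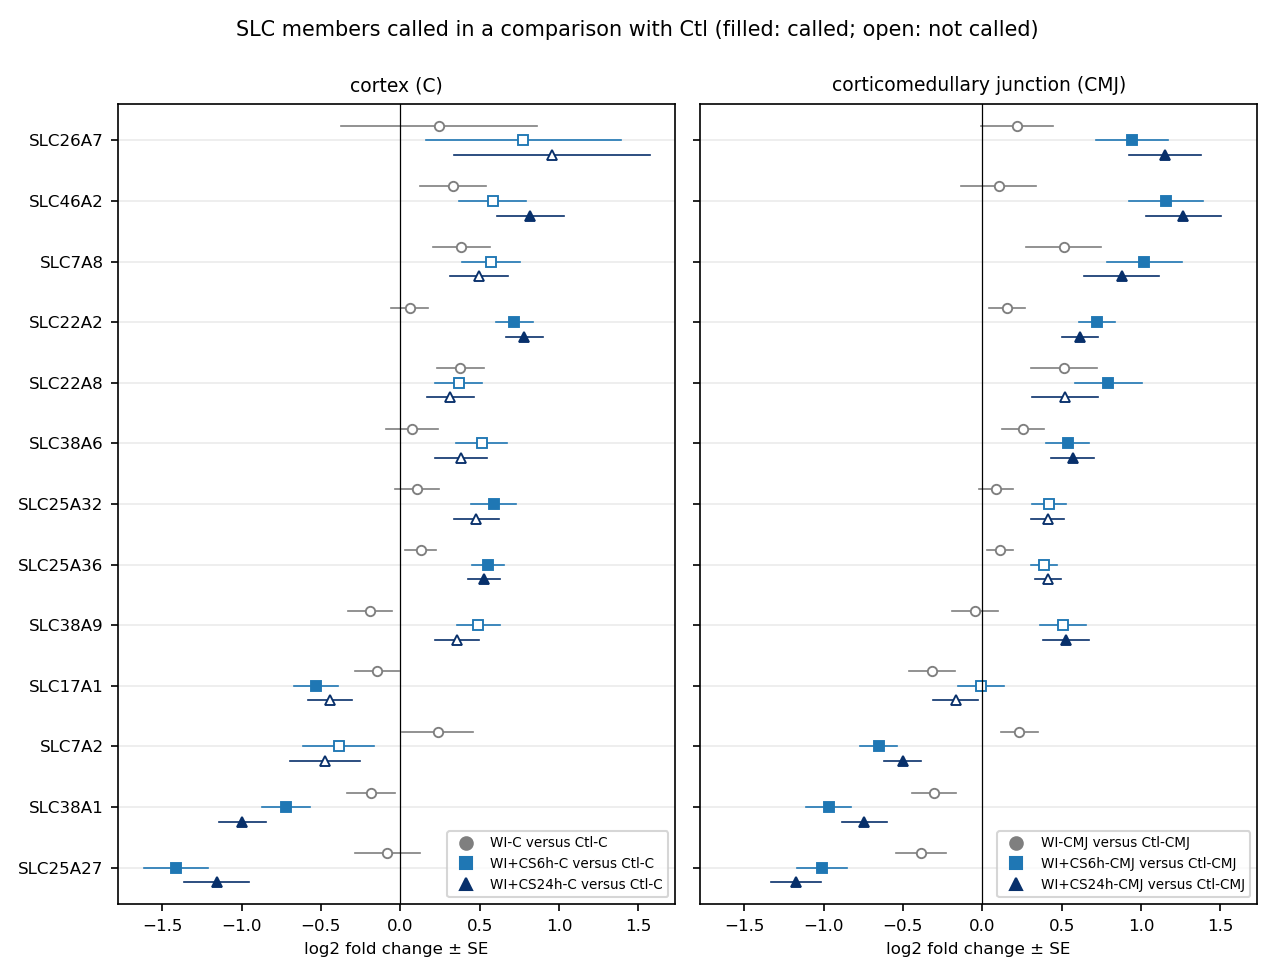
Log2 fold change against Ctl (x axis, ± SE) of the 13 members called in a comparison with Ctl, in cortex (left) and CMJ (right), for WI, WI+CS6h and WI+CS24h (5 arrays a group); filled symbols were called and open ones were not. SLC25A27 and SLC38A1 lie left of 0 and SLC22A2 right of 0 in all 4 cold storage comparisons, while no WI symbol is filled.

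Among the organic ion and drug carriers (13 measured), SLC22A2 and SLC22A8 rose and no member fell against Ctl. SLC22A2 encodes OCT2, which takes up organic cations on the basolateral side of the proximal tubule. Its log2 signals in cortex were 9.43, 9.58, 9.27, 9.76 and 9.81 in Ctl, 9.48, 9.83, 9.70, 9.47 and 9.67 in WI, 10.56, 10.42, 10.25, 10.13 and 10.09 in WI+CS6h and 10.41, 10.48, 10.20, 10.37 and 10.30 in WI+CS24h. In CMJ they were 9.65, 9.68, 9.77, 9.43 and 9.44 in Ctl, 9.72, 9.60, 9.78, 9.82 and 9.83 in WI, 10.56, 10.55, 10.23, 10.22 and 10.03 in WI+CS6h and 10.31, 10.36, 9.84, 10.32 and 10.22 in WI+CS24h. Every cold storage array lay above every control array of its tissue, and the WI arrays lay among the control values or just above them.

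The SLC22A2 differences from Ctl were 0.72 ± 0.12 and 0.78 ± 0.12 in cortex at 6 h and 24 h (limma adjusted p = 0.00176 and 0.00102) and 0.72 ± 0.12 and 0.61 ± 0.12 in CMJ (adjusted p = 0.00122 and 0.00386). All 3 probes rose in all 4 comparisons but by unequal amounts: probe 1 by 0.31 to 0.42, probe 2 by 0.87 to 1.19 and the probe nearest the transcript's 3′ end (bases 2915 to 2974) by 0.64 to 0.80. Within the 4 slides that held both WI+CS6h-C and Ctl-C the difference was 0.29 to 1.29, and within the 2 that held WI+CS24h-C and Ctl-C it was 0.61 and 1.05. With a slide term the 24 h cortex difference was 0.78 but was no longer called (adjusted p = 0.119), while the other 3 stayed called. The 4 calls were kept with normexp. On the authors' deposited values, which hold 1 row per identifier with no statement of how probes were combined, none of the 4 was called, at 0.31 to 0.40 and adjusted p-values of up to 0.179.

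SLC22A8 encodes OAT3, the basolateral organic anion carrier. In CMJ its log2 signals ran from 10.67 to 11.06 on the 5 Ctl arrays and from 11.26 to 12.20 on the 5 WI+CS6h arrays, with no overlap. The difference was 0.80 ± 0.21 (adjusted p = 0.0373). The call was kept in 2 of 10 fits without 1 array and was lost with 75th percentile scaling and with the share of spots well above background in the model (differences of 0.68 to 0.94, largest adjusted p = 0.106). In cortex the 5 control arrays ran from 11.41 to 11.65 and the 5 WI+CS6h arrays from 11.71 to 12.08, and the difference was not called. Its interaction, the CMJ difference minus the cortex difference, was 0.43 ± 0.26 at 6 h (adjusted p = 0.836), so a difference between the tissues was not shown. SLC22A7, the anion carrier OAT2, had 0.38 in CMJ at 6 h with an adjusted p of 0.0407 and stayed under the fold threshold.

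Of the 26 amino acid and peptide carriers, SLC38A1 and SLC7A2 fell, and SLC7A8, SLC38A6 and SLC38A9 rose, in at least 1 comparison with Ctl. SLC38A1 (SNAT1) takes up glutamine together with sodium. In cortex its log2 signals were 5.68, 5.81, 5.65, 5.68 and 5.65 in Ctl, 5.10, 4.77, 4.87, 4.81 and 5.32 in WI+CS6h and 5.14, 4.51, 4.48, 4.60 and 4.77 in WI+CS24h. In CMJ they were 5.45, 5.48, 5.33, 5.83 and 5.42 in Ctl, 4.81, 4.39, 4.36, 4.19 and 4.94 in WI+CS6h and 4.78, 4.86, 4.82, 4.60 and 4.74 in WI+CS24h. All 20 cold storage arrays lay below all control arrays of their tissue.

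The SLC38A1 differences were -0.72 ± 0.15 and -0.99 ± 0.15 in cortex (adjusted p = 0.00983 and 0.00108) and -0.97 ± 0.14 and -0.74 ± 0.14 in CMJ (adjusted p = 0.000551 and 0.0041). The WI arrays ran from 5.13 to 5.90 in cortex and from 4.94 to 5.55 in CMJ and overlapped the control arrays. With a slide term only the 6 h call in CMJ was kept: the other adjusted p-values were 0.0511 and 0.0711 in cortex and 0.0946 in CMJ, with differences of -0.67, -1.08 and -0.82. All 4 calls were lost with normexp, at -0.20 to -0.15, and all but the 24 h call in cortex on the deposited values, each time because the difference fell under the fold threshold. Within single slides the difference was below 0 in all that held both groups.

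SLC7A8 (LAT2) exchanges neutral amino acids on the basolateral side of the proximal tubule as the partner of SLC3A2. In CMJ its log2 signals were 6.10, 6.25, 6.36, 6.30 and 5.83 in Ctl, 6.22, 6.90, 6.72, 6.60 and 6.95 in WI, 7.53, 7.82, 7.33, 6.89 and 6.36 in WI+CS6h and 7.36, 7.46, 6.89, 7.02 and 6.50 in WI+CS24h. The lowest WI+CS6h array and the highest control array both round to 6.36, and the cold storage arrays otherwise lay above the controls. The differences were 1.02 ± 0.24 and 0.88 ± 0.24 (adjusted p = 0.0174 and 0.0377), and the 24 h call was lost with a slide term (0.83, adjusted p = 0.226) and kept in 3 of 10 fits without 1 array. Both were lost with normexp, and the 24 h call also with 75th percentile scaling, the deposited values and the share covariate. Cortex was not called, and the interactions were 0.45 ± 0.30 and 0.38 ± 0.30 (adjusted p = 0.836 and 1.00). Its 3 probes rose unequally in CMJ at 6 h, by 1.65, 0.82 and 0.59. The WI-CMJ arrays ran from 6.22 to 6.95, against 5.83 to 6.36 in Ctl-CMJ, and SLC7A8 was not called against WI-CMJ at 6 h or 24 h.

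SLC7A2 (CAT2) takes up arginine and other cationic amino acids. Its CMJ signals were 6.10, 6.25, 6.04, 6.55 and 6.60 in Ctl, 5.36, 5.70, 5.65, 5.71 and 5.86 in WI+CS6h and 5.87, 5.77, 5.86, 5.73 and 5.79 in WI+CS24h. All 10 cold storage arrays lay below all 5 control arrays. It fell by 0.65 on the log2 scale at 6 h (SE 0.12, adjusted p = 0.00294) and by 0.50 at 24 h (SE 0.12, adjusted p = 0.0165), and the 24 h call was lost with a slide term (adjusted p = 0.0901) and with the share covariate and kept in 5 of 10 fits without 1 array. Both calls were lost with normexp, at -0.18 and -0.15, and on the deposited values. In cortex the control arrays spread from 5.67 to 6.87 and nothing was called. Against WI-CMJ, whose arrays ran from 6.40 to 6.83, it fell further, by 0.89 at 6 h (adjusted p = 0.000331) and by 0.74 at 24 h.

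SLC38A6, a relative of the glutamine carriers, rose in CMJ by 0.54 ± 0.13 at 6 h and 0.57 ± 0.13 at 24 h, and at 24 h 1 array of each group overlapped. The calls were kept in 6 and 8 of 10 fits without 1 array, and both were lost with normexp and on the deposited values, the 6 h call also with 75th percentile scaling and with the share covariate. SLC38A9, which senses arginine at the lysosome, rose in CMJ at 24 h by 0.53 with overlapping arrays, a call that was lost with a slide term (adjusted p = 0.312), 75th percentile scaling, normexp, the deposited values and the share covariate and kept in 3 of 10 fits without 1 array. SLC7A7 and the other 20 measured amino acid carriers were not called against Ctl. The class median at 6 h and 24 h was 0.24 and 0.08 for cortex and 0.14 and 0.03 for CMJ.

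**Figure D2:**
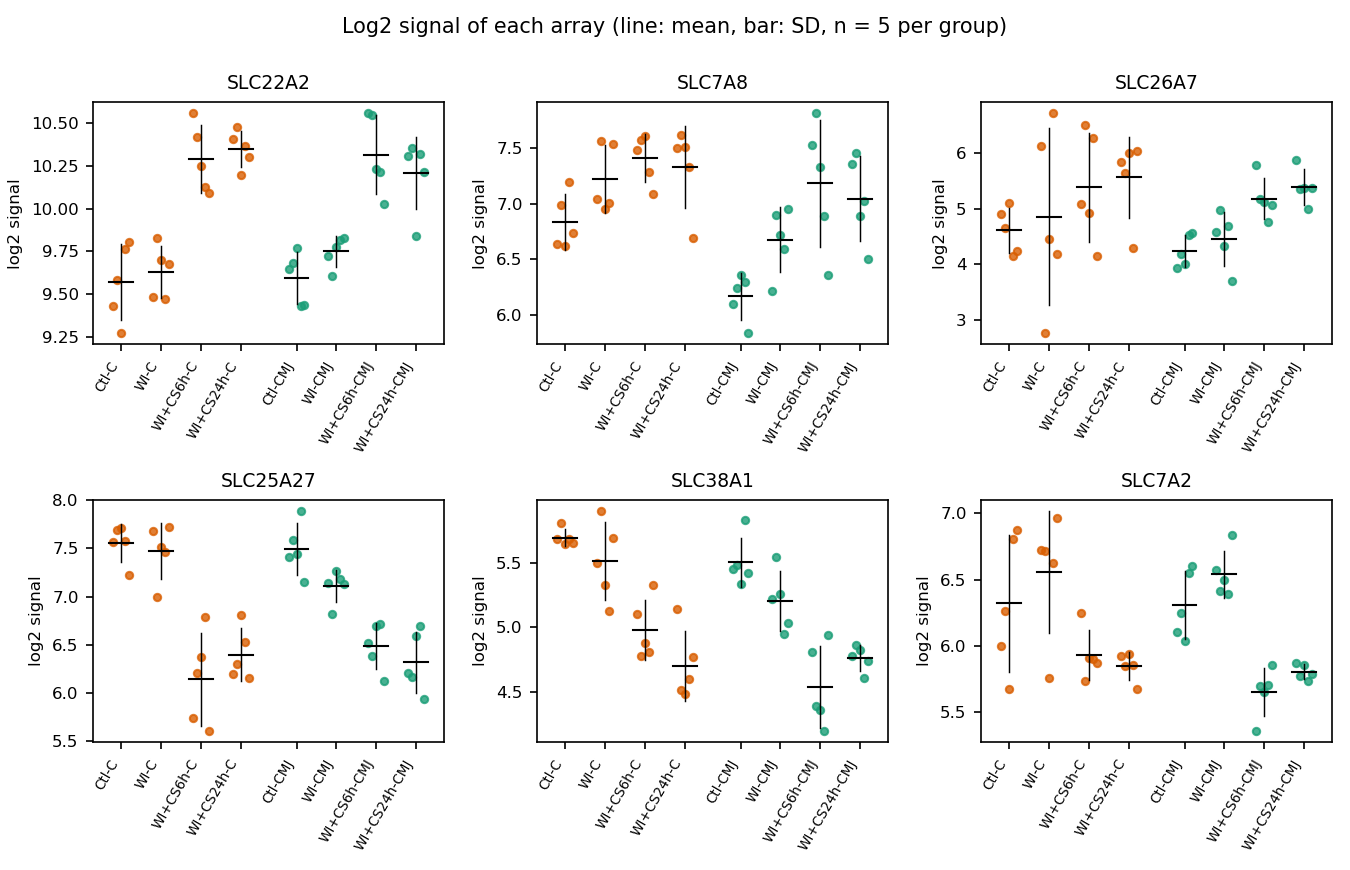
Log2 signal of every array (y axis) in the 8 groups (x axis) for 6 members called against Ctl in cold storage, with the group mean as a line and the SD as a bar (n = 5). SLC22A2 lies higher and SLC25A27 and SLC38A1 lie lower in the cold storage groups than in Ctl of both tissues, while SLC26A7 spreads from 2.75 to 6.72 in WI-C alone.

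Among 18 bicarbonate, proton and anion exchangers, 1 member was called against Ctl. SLC26A7 encodes a chloride-bicarbonate exchanger of intercalated cells. In CMJ its log2 signals were 3.92, 4.18, 3.99, 4.52 and 4.57 in Ctl, 5.78, 5.17, 5.11, 4.77 and 5.07 in WI+CS6h and 5.88, 5.34, 5.37, 4.99 and 5.36 in WI+CS24h. The groups did not overlap, and the differences were 0.95 ± 0.23 and 1.15 ± 0.23 (adjusted p = 0.0216 and 0.00519). Both calls were lost with a slide term (adjusted p = 0.115 and 0.162), with differences of 0.91 and 1.16, and with normexp, at 0.17 and 0.22. The 6 h call was also lost on the deposited values and was kept in 6 of 10 fits without 1 array. In cortex its arrays spread too widely for a call, and the interactions were 0.17 ± 0.67 and 0.20 ± 0.67.

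Of 10 markers of loop and collecting duct cells other than SLC genes, 7 were measured. SCNN1G, a subunit of the epithelial sodium channel, rose in both CMJ cold storage groups against Ctl, and none of the 7 fell against Ctl. AQP3, the collecting duct water channel, fell against WI in all 4 cold storage comparisons. The summed signal of the 7 markers ran from 8825 to 13110 over the Ctl-CMJ arrays and from 8286 to 16150 over the WI+CS24h-CMJ arrays. Their part in the SLC26A7 result was not tested. In the endothelial list of 5, KDR rose in both CMJ cold storage groups. In cortex at 6 h SCNN1G rose by 0.65 ± 0.18 (adjusted p = 0.0431) and LPL, the lipoprotein lipase gene of the adipocyte list, by 1.06 ± 0.30 (adjusted p = 0.0482), and their part in the calls of that comparison was not tested.

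SLC46A2, a dim member that belongs to none of the classes and is related to the folate carriers, rose by the largest amount in CMJ. Its log2 signals were 3.33, 3.05, 3.61, 2.26 and 2.89 in Ctl-CMJ, 4.17, 4.18, 4.27, 4.23 and 4.09 in WI+CS6h-CMJ and 4.23, 4.37, 4.49, 4.16 and 4.25 in WI+CS24h-CMJ. The cold storage arrays lay in a narrow band above all controls, with differences of 1.16 ± 0.23 and 1.27 ± 0.23 (adjusted p = 0.00757 and 0.00348). In cortex the difference was 0.82 ± 0.21 at 24 h (adjusted p = 0.0417). One of its 2 probes was well above background on 5 of 40 arrays. With a slide term the 6 h call in CMJ was kept and both 24 h calls were lost (adjusted p = 0.0934 in CMJ and 0.213 in cortex). Both CMJ calls were lost with normexp, at 0.18 and 0.15, and on the deposited values. The cortex call was also lost with 75th percentile scaling, normexp, the deposited values and the replicate block, and was kept in 2 of 10 fits without 1 array.

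Of the 17 mitochondrial SLC25 carriers, 1 fell in both tissues at both times, 2 rose in cortex and the other 14 were not called against Ctl. SLC25A27 encodes UCP4, a relative of the uncoupling proteins. In cortex its log2 signals were 7.57, 7.69, 7.72, 7.57 and 7.23 in Ctl, 7.68, 6.99, 7.52, 7.46 and 7.73 in WI, 5.74, 6.21, 6.37, 6.79 and 5.60 in WI+CS6h and 6.20, 6.30, 6.81, 6.53 and 6.16 in WI+CS24h. In CMJ they were 7.41, 7.59, 7.44, 7.89 and 7.15 in Ctl, 7.14, 6.82, 7.26, 7.18 and 7.13 in WI, 6.52, 6.38, 6.69, 6.71 and 6.13 in WI+CS6h and 6.21, 6.17, 6.59, 6.70 and 5.94 in WI+CS24h. All 20 cold storage arrays were below all control and all WI arrays of their tissue.

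The SLC25A27 differences from Ctl were -1.42 ± 0.20 and -1.16 ± 0.20 in cortex (adjusted p = 0.000636 and 0.00357) and -1.01 ± 0.16 and -1.18 ± 0.16 in CMJ (adjusted p = 0.00104 and 0.000263). These 4 calls stood under every alternative and in every fit that left out 1 array. Within slides the difference ran from -1.98 to -1.20 over the 4 slides with WI+CS6h-C and Ctl-C and from -1.50 to -1.19 over the 2 slides with WI+CS24h-CMJ and Ctl-CMJ. The interactions were 0.41 ± 0.26 at 6 h and -0.02 ± 0.26 at 24 h (adjusted p = 0.836 and 1.00). All of it rests on the single probe printed above.

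SLC25A36, which carries pyrimidine nucleotides into mitochondria, was at 5.28 to 5.52 on the control arrays of cortex, 5.79 to 6.18 in WI+CS6h and 5.80 to 6.29 in WI+CS24h, with no overlap. The differences were 0.55 ± 0.10 and 0.53 ± 0.10 (adjusted p = 0.00374 and 0.00631), and the 24 h call was lost with a slide term (0.58, adjusted p = 0.102). The 6 h call was lost with the share covariate and without the 2 WI+CS6h-C arrays of lowest share, and both were lost with 75th percentile scaling, normexp and the deposited values. In CMJ its 24 h difference of 0.42 had an adjusted p of 0.00473 but stayed under the fold threshold. SLC25A32, which carries folate and FAD, rose in cortex at 6 h by 0.59 ± 0.14 (adjusted p = 0.0218), with 1 WI+CS6h array at 5.47 inside the control range of 5.17 to 5.57. That call was kept under 4 of 9 alternatives and in 5 of 10 fits without 1 array. It was lost with 75th percentile scaling, normexp, the deposited values, the share covariate and without the 2 arrays of lowest share. In CMJ it differed by 0.42 at 6 h with an adjusted p of 0.0296.

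Split by role, 0 of the 6 measured carriers on a list for nucleotides and metabolic substrates were called. That list left out SLC25A36 and SLC25A32, whose calls are given above. The medians of the 6 at 6 h and 24 h were 0.17 and 0.19 for cortex and 0.17 and 0.20 for CMJ. The one with the highest mean signal, the adenine nucleotide translocase SLC25A6, differed from Ctl by 0.06 to 0.19 over the 6 comparisons (smallest adjusted p = 0.245). Of the 4 measured carriers on the uncoupling and ion list, which also held SLC25A39, SLC25A27 was the only one called against Ctl. SLC25A37, the mitochondrial iron importer mitoferrin, had the highest mean signal of these and was saturated on 5 arrays, at most 1 in a group, so its plotted differences may be too small and no value is drawn from them.

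**Figure D3:**
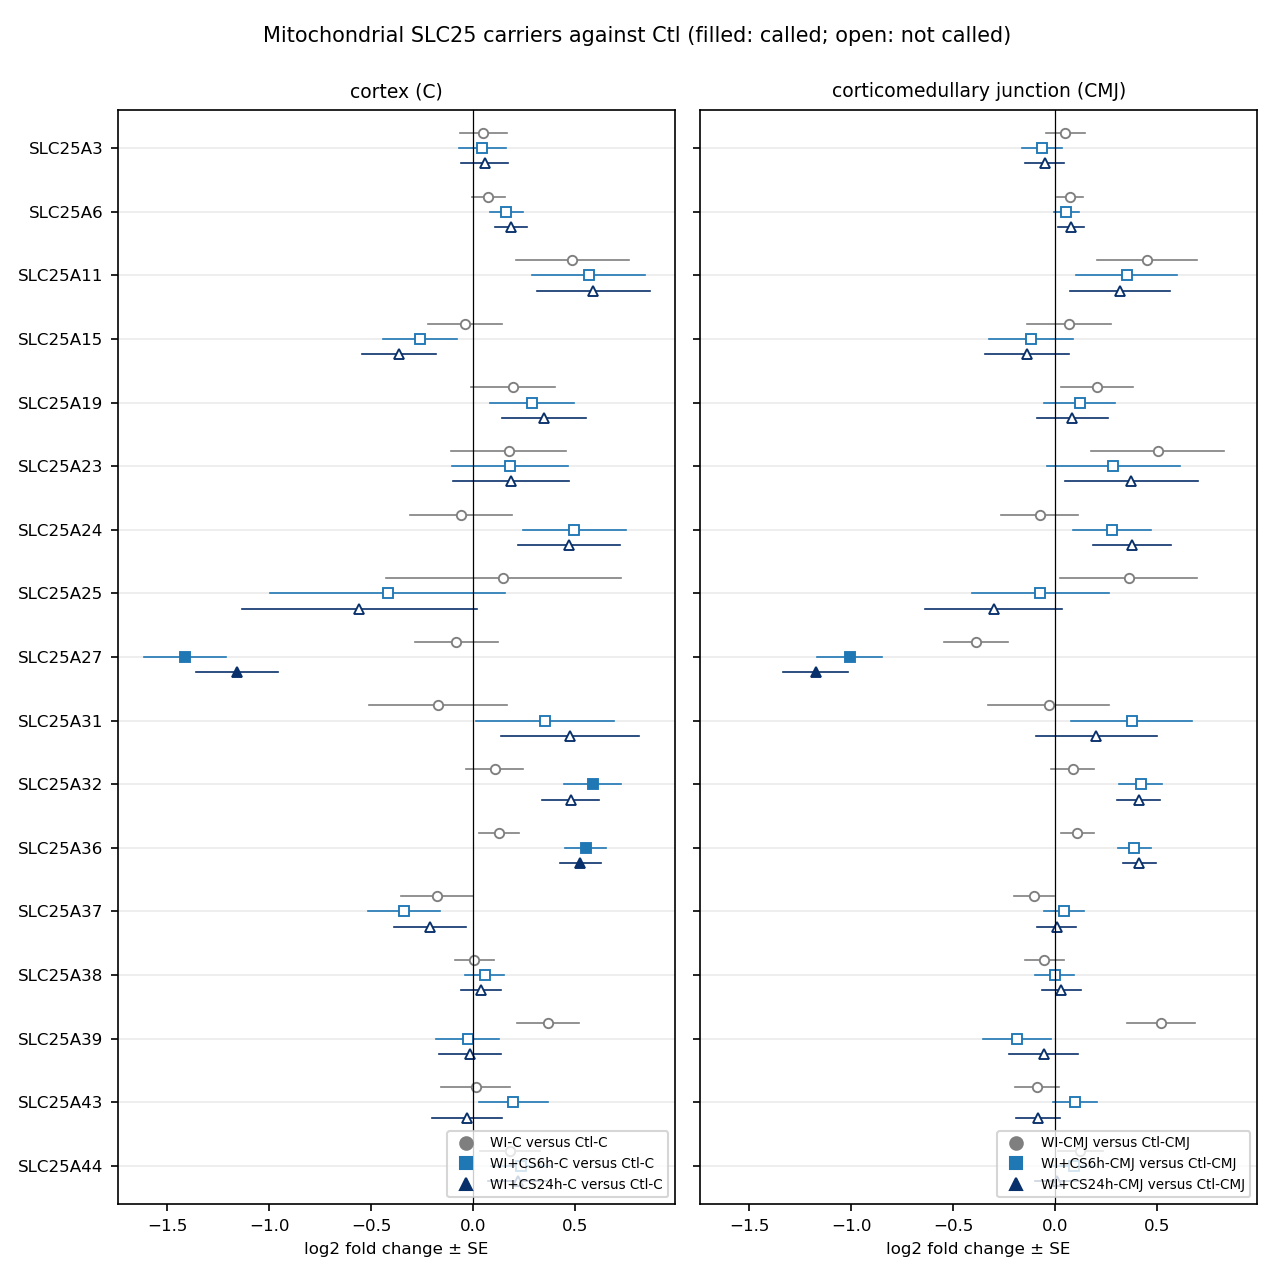
Log2 fold change against Ctl (x axis, ± SE) of the 17 mitochondrial SLC25 carriers on the array, in cortex (left) and CMJ (right), for WI, WI+CS6h and WI+CS24h; filled symbols were called. SLC25A27 is the only member below -1, and the other filled symbols are SLC25A32 at 6 h and SLC25A36 at both times in cortex. SLC25A37 is plotted although it was saturated on 5 arrays.

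Phosphate carriers were measured by 5 members. SLC34A1 stayed close to its control level: its group means ran from 13.98 to 14.44, its differences from Ctl for WI, WI+CS6h and WI+CS24h were 0.23, 0.03 and 0.05 (cortex) and 0.36, 0.21 and 0.04 (CMJ), and none was called (smallest adjusted p = 0.467). A second, dim identifier of SLC34A1 (AK232435), well above background on 26 of 40 arrays, differed from Ctl at 6 h and 24 h by -0.77 and -1.03 (cortex) and -0.91 and -0.89 (CMJ), and none of these was called (smallest adjusted p = 0.367). SLC17A1 (NPT1), a phosphate and urate carrier of the proximal tubule, fell in cortex at 6 h by 0.53 on the log2 scale (SE 0.14, adjusted p = 0.0352). Its signals were 10.58, 10.42, 10.62, 10.36 and 10.20 in Ctl-C and 9.66, 10.07, 9.99, 10.32 and 9.48 in WI+CS6h-C, and 1 array of each group overlapped. That call was lost with 75th percentile scaling, with normexp, when the share of spots well above background entered the model, and when the 2 WI+CS6h-C arrays with the lowest share were left out, and it was kept in 3 of 10 fits without 1 array.

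The sugar carriers (11 measured) had no call against Ctl, nor did the cation-chloride cotransporters (3), the monocarboxylate, dicarboxylate and citrate carriers (8), the osmolyte and urea carriers (4), the nucleoside, vitamin and lipid carriers (20), the metal ion and calcium carriers (21) and the nucleotide-sugar carriers of inner membranes (7). The member with the highest mean signal in each is given as its example. SLC2A11, a facilitated sugar carrier, differed from Ctl by -0.51 to -0.02 over the 6 comparisons (smallest adjusted p = 0.313). Its second identifier went the other way, at 0.06 and 0.21 in cortex at 6 h and 24 h and 0.37 in CMJ at 6 h, and was not called there. SLC12A1 differed by -0.08, 0.30 and 0.40 in cortex and -0.16, -0.31 and -0.20 in CMJ for WI, WI+CS6h and WI+CS24h. SLC16A9, a monocarboxylate family member, differed by -0.25 to -0.02. SLC44A4, a choline carrier family member, differed by -0.11 to 0.16. SLC46A1, the proton-coupled folate carrier, differed by -0.07 to 0.28. SLC39A14, the zinc and iron importer ZIP14, differed by -0.59 to -0.13 (smallest adjusted p = 0.309). SLC37A4, the glucose-6-phosphate carrier of the endoplasmic reticulum, was saturated on 16 of 40 arrays, so its differences are not given as values, although it stayed in the counts, medians and plots.

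By nephron site, the 29 measured proximal tubule members had medians at 6 h and 24 h of 0.15 and 0.10 for cortex and 0.21 and 0.11 for CMJ. The 8 measured members of the loop, distal tubule and collecting duct had medians of 0.21 and 0.26 for cortex and -0.06 and -0.10 for CMJ. These medians carry no test.

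**Figure D4:**
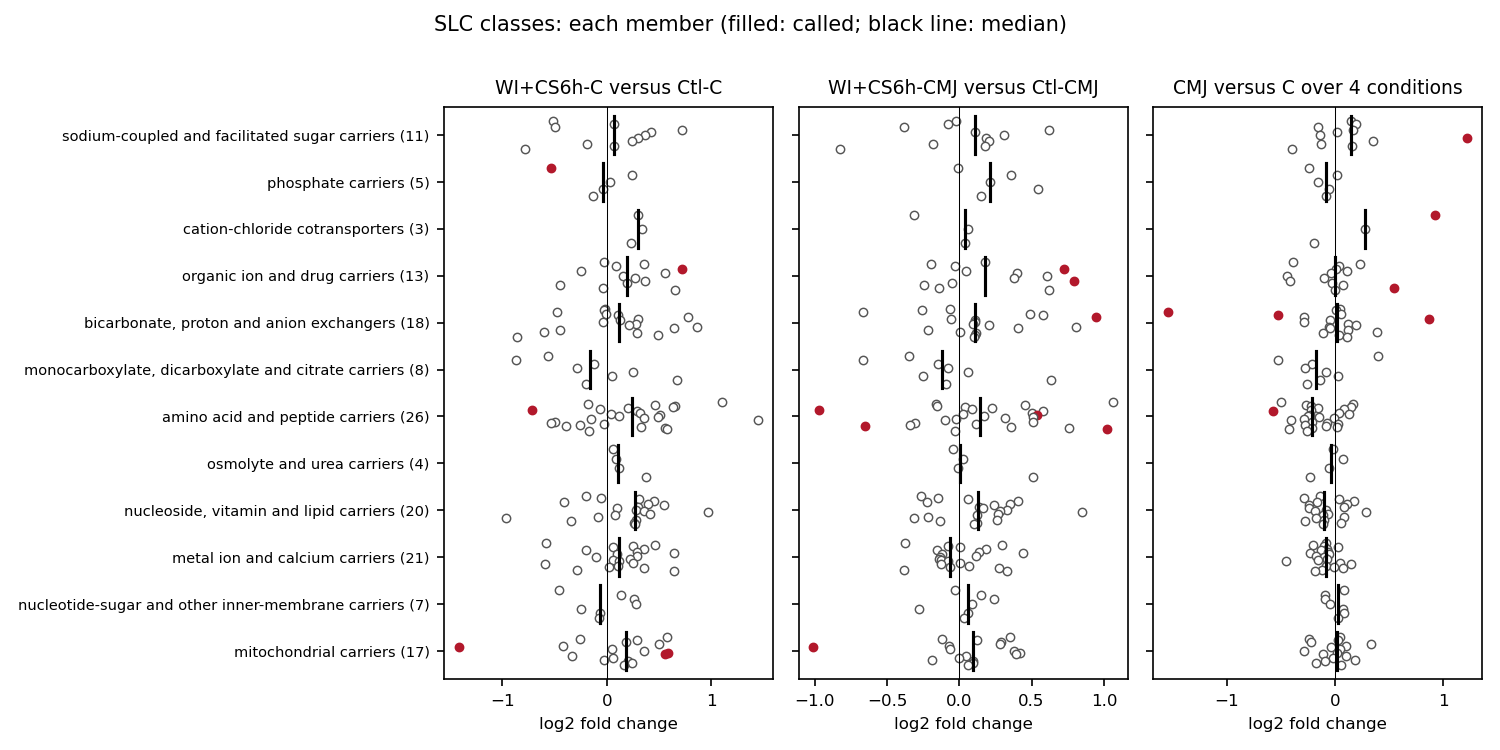
Log2 fold change (x axis) of every classed member by SLC class (rows, number measured in brackets) at 6 h of cold storage in cortex and in CMJ and between CMJ and cortex over the 4 conditions; filled points were called and the black line is the class median. Class medians lie within 0.30 of 0, and the called members are single points at the ends of their classes.

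Against WI rather than Ctl, 4 members were called in cortex at 6 h (2.5%, beside 1.93% of all identifiers) and 3 at 24 h (1.88%, beside 1.2%). In CMJ 7 were called at 6 h (4.38%, beside 2.78%) and 7 at 24 h (4.38%, beside 2.85%). For identifiers with a gene symbol the share called against WI-C was 2.64% at 6 h and 1.96% at 24 h. Against WI-CMJ it was 3.6% and 3.74%. Beside this background the member shares were slightly lower for cortex and somewhat higher for CMJ. Nothing about the family as a whole is read from them. SLC25A27 fell in all 4 comparisons, by 1.33 and 1.08 on the log2 scale in cortex and by 0.62 and 0.79 in CMJ. SLC22A2 rose by 0.66 and 0.72 in cortex and by 0.57 in CMJ at 6 h. SLC38A1 fell by 0.81 in cortex at 24 h and by 0.66 in CMJ at 6 h. SLC46A2 rose by 1.06 and 1.16 in CMJ, and SLC26A7 by 0.94 at 24 h. With a slide term 0 of the 4 cortex calls and 0 of the 7 CMJ calls at 6 h were kept, where 2 slides held both groups. At 24 h the slide term ended the cortex calls of SLC22A2 (adjusted p = 0.114) and SLC38A1 (adjusted p = 0.0753) and, in CMJ, that of SLC26A7 (adjusted p = 0.0973), which was kept in 7 of 10 fits without 1 array. Both SLC46A2 calls and both SLC38A1 calls were lost on the deposited values, and the 6 h SLC46A2 call also with the share covariate. With normexp only the cortex calls of SLC25A27 and SLC22A2 were kept. The SLC25A27 call in CMJ at 6 h was also lost with the share covariate and was kept in 3 of 10 fits without 1 array, and on the deposited values 0 of the 3 SLC22A2 calls were kept.

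Only against WI were 3 further members called. SLCO2A1, the prostaglandin carrier, fell by 0.66 in cortex at 6 h, where the WI arrays ran from 5.14 to 5.87 and the WI+CS6h arrays from 4.55 to 5.08, and by 0.59 in CMJ at 24 h. Both calls were lost with normexp and on the deposited values, and the cortex call also with a slide term and without the 2 arrays of lowest share. SLC25A39, which carries glutathione into mitochondria, fell by 0.71 in CMJ at 6 h, with arrays at 6.39, 7.02, 6.89, 6.93 and 7.06 in WI and 6.10, 6.40, 6.28, 6.18 and 5.80 in WI+CS6h that overlapped by 1 array of each group. That call was kept in 4 of 10 fits without 1 array and was lost with normexp, the share covariate and a slide term (adjusted p = 0.101). SLC2A8 (GLUT8), an intracellular sugar carrier, rose in CMJ at 24 h by 0.60, a call that was lost with 75th percentile scaling, normexp, a slide term (adjusted p = 0.0582) and the share covariate, and was kept in 2 of 10 fits without 1 array. The lysosomal SLC38A9 rose by 0.68 in cortex at 6 h and by 0.56 and 0.58 in CMJ. These 3 calls were lost with normexp, the deposited values and a slide term, the cortex call also with 75th percentile scaling and the 6 h CMJ call with the share covariate, and the CMJ calls were kept in 3 and 5 of 10 fits without 1 array. The difference between a call against WI and none against Ctl was not tested.

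Markers of other cells also differed from WI. In CMJ SCNN1G rose by 0.79 at 6 h and 0.97 at 24 h (adjusted p = 0.0227 and 0.00555). CFD, the complement factor gene adipsin of the adipocyte list, fell in CMJ at 6 h by 0.65 on the log2 scale (adjusted p = 0.0349), with a median of -0.42 over the 7 measured adipocyte markers. In cortex that median was 0.21 at 6 h and 0.27 at 24 h. The 6 measured leukocyte markers had medians at 6 h and 24 h of -0.35 and -0.46 (cortex) and -0.48 and -0.51 (CMJ), and none was called. HBB, a globin gene and the only erythrocyte marker measured, was well above background on all 5 arrays of a group in WI-C and WI-CMJ alone, and at 6 h it differed from WI by -2.01 ± 1.06 in cortex and -1.61 ± 0.91 in CMJ (adjusted p = 0.396 and 0.397). The part of these markers in the calls against WI was not tested.

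Between 6 h and 24 h of storage no member was called in either tissue, with 0% and 0.00278% of all identifiers called in cortex and CMJ, and 1 member in each had an unadjusted p under 0.05 in limma (0.625%, beside 3.11% and 3.44%). These groups hold the same 5 kidneys. In CMJ arrays with the same number deviated together, and with the number as a block 0 members were called as well.

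Between the tissues of control kidneys 3 members were called, all higher in CMJ: SLC5A1, SLC12A1 and SLC4A11. They are 1.88% of members, beside 0.312% of all identifiers, of which 0.27% were higher and 0.0417% lower. Averaged over the 4 conditions 7 were called, 4 higher and 3 lower in CMJ (4.38%, beside 1.39%, of which 1.15% were higher and 0.242% lower), and 49 of 160 had an unadjusted p under 0.05 (30.6%, beside 14.4% of all identifiers). Among identifiers with a gene symbol the share called was 0.581% in control kidneys and 2.18% over the 4 conditions. Both tissues were taken from the same kidneys, and the labels number the arrays of each group without saying whether a number marks 1 kidney. Same-numbered arrays of the tissues deviated together in WI+CS6h and WI+CS24h but not in every pair of WI or Ctl, so the 40 arrays were fitted as separate samples. With the number as a block within each condition, all 7 calls over the 4 conditions were kept and 8 members were called.

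SLC5A1 is the sodium-glucose cotransporter SGLT1 of the late proximal tubule. In cortex its control arrays were at 6.30, 6.19, 6.10, 6.50 and 7.33, and in CMJ at 7.93, 7.70, 7.67, 7.80 and 8.30, with no overlap. The difference was 1.40 ± 0.28 in control kidneys (adjusted p = 0.0118) and 1.22 ± 0.14 over the 4 conditions (adjusted p = 5.26e-07). All 5 probes shared it, at 1.07 to 1.27 over the 4 conditions. Within the 4 slides that held both tissues in a condition the difference was 0.99 to 1.98.

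SLC12A1 is the loop diuretic target NKCC2. Its control arrays were at 9.52, 9.52, 9.42, 9.53 and 10.29 in cortex and 10.92, 10.64, 10.18, 11.22 and 11.51 in CMJ, so that cortex replicate 5 lay above CMJ replicate 3 and the other arrays were apart. The difference was 1.24 ± 0.25 in control kidneys (adjusted p = 0.0119) and 0.92 ± 0.12 over the 4 conditions (adjusted p = 7.60e-06). Cortex replicate 5 also held the highest SLC5A1 and the lowest SLC26A4 of its group. Without it the control differences were 1.40 for SLC12A1, 1.61 for SLC5A1 and 1.27 for SLC4A11, and all 3 stayed called. Over the 10 fits without 1 array the control call was kept in 9 for SLC12A1, 7 for SLC5A1 and 2 for SLC4A11. Without Ctl-CMJ replicate 5 none of the 3 was called, at 1.09, 1.29 and 1.09 with adjusted p-values of 0.0887, 0.0728 and 0.236.

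SLC4A11, a borate and proton transporter family member, was at 6.43, 6.37, 6.34, 6.24 and 6.56 in Ctl-C and 7.46, 7.53, 6.58, 8.32 and 8.18 in Ctl-CMJ. The difference was 1.23 ± 0.28 in control kidneys (adjusted p = 0.0413) and 0.86 ± 0.14 over the 4 conditions (adjusted p = 0.000147). The control call was also lost with 75th percentile scaling, and the call over the 4 conditions with normexp (0.39). One of the 4 slides with both tissues ran the other way for it, at -0.33. SLCO3A1, an organic anion carrier, was 0.55 ± 0.08 higher in CMJ (adjusted p = 3.80e-05), and its call was lost with normexp (0.32) and on the deposited values. With a slide term the 3 control differences were 1.15 for SLC12A1, 1.26 for SLC5A1 and 1.13 for SLC4A11 and were not called (adjusted p = 0.130, 0.145 and 0.258), with 2 slides that held both groups.

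On the cortex side SLC26A4, the chloride-bicarbonate exchanger pendrin of intercalated cells, had the largest fitted difference. Its log2 signals were 5.06, 4.84, 5.08, 4.83 and 4.19 in Ctl-C and 3.42, 4.05, 4.11, 3.38 and 2.51 in Ctl-CMJ, and all 5 cortex arrays lay above all 5 CMJ arrays, although the control difference of -1.30 was not called (adjusted p = 0.182). It was lower in CMJ over the 4 conditions, at -1.55 ± 0.19 (adjusted p = 1.50e-06). It was well above background on all 20 cortex arrays and, in CMJ, on 5, 1, 4 and 3 arrays in Ctl, WI, WI+CS6h and WI+CS24h, so its CMJ level is near the limit of the array and the size of the difference is uncertain. With normexp the difference was -0.15 and was not called.

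SLC38A3, the glutamine carrier SNAT3 of the proximal tubule, was also lower in CMJ, at -0.58 ± 0.13 (adjusted p = 0.00823). Its differences within the 4 slides ran from -0.76 to 0.31, with 1 slide the other way, and the call was lost with normexp. SLC26A6, an apical chloride, oxalate and bicarbonate exchanger of the proximal tubule, was at -0.53 ± 0.11 (adjusted p = 0.00245), and its call was lost with a slide term, where the difference was -0.49, with normexp and on the deposited values. SLC34A1 differed by -0.16 (adjusted p = 0.393), although in control kidneys its 5 cortex arrays (14.09 to 14.42) lay above its 5 CMJ arrays (13.92 to 14.06). The median of the 29 proximal tubule members was -0.16 and that of the 8 loop, distal tubule and collecting duct members 0.00, beside -0.02 over all identifiers. Outside the SLC genes 0 of 8 proximal tubule markers (median -0.06) and 0 of 7 loop and collecting duct markers (median -0.02, range -0.34 to 0.32) were called. The podocyte marker WT1 was lower and the lipase gene LPL higher in CMJ. Their part in the tissue differences was not tested.

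**Figure D5:**
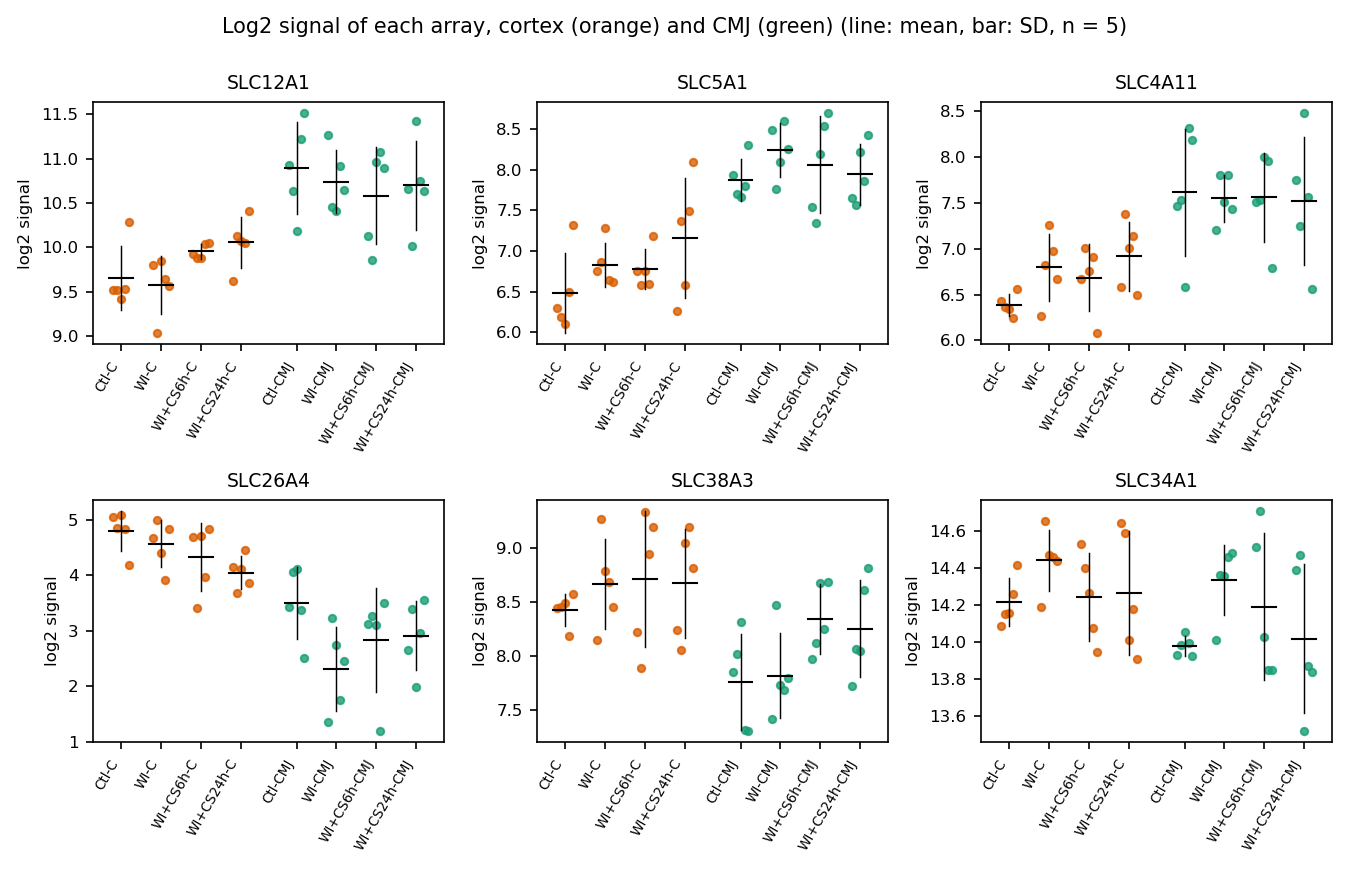
Log2 signal of every array (y axis) in the 8 groups (x axis; cortex orange, CMJ green) for 5 members called between the tissues and for SLC34A1, with the group mean as a line and the SD as a bar (n = 5). SLC5A1 and SLC12A1 sit higher and SLC26A4 lower in the CMJ groups, and SLC34A1 stays between 13.52 and 14.71 throughout.

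No member's change from control was shown to differ between cortex and CMJ. The interaction was called for 0 of 160 members in WI, WI+CS6h and WI+CS24h, with 0% of all identifiers called, and 2, 4 and 2 members had an unadjusted p under 0.05 in limma (1.25%, 2.5% and 1.25%, beside 1.98%, 5.17% and 2.58%). Of the members called against Ctl in 1 tissue alone, SLC17A1 had an interaction of 0.53 ± 0.20 at 6 h, SLC7A2 of -0.26 ± 0.25, SLC38A6 of 0.03 ± 0.21, SLC25A36 of -0.16 ± 0.13 and SLC25A32 of -0.17 ± 0.18, and SLC46A2, which at 6 h was called in CMJ alone, had 0.58 ± 0.32, each with an adjusted p of 0.836 or above. For the tissue markers at 24 h, it was -0.60 ± 0.35 for SLC12A1 and -0.61 ± 0.39 for SLC5A1.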

How the data were processed

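The authors hybridised Cy3-labelled RNA to 1-colour porcine arrays, and Agilent Feature Extraction 11.5.1.1 (submitters' processing notes, with R 2.15.2 and limma) gave the deposited spot intensity, already background-subtracted. The deposited matrix of 35955 rows holds the authors' log2 values. Its rows matched by probe name and all 40 columns correlated best with their own array (lowest r 0.982), its medians were 5.32 to 5.35, and the methods give quantile normalization by condition. It served as an alternative. Its centring was not stated.

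Here the processed intensity of 43803 non-control spots was taken to log2, outlier-flagged spots were set missing, arrays were quantile normalized together and spots were averaged by identifier. R 4.3.3 and limma 3.58.1 were used. Each tissue was fitted on its 20 arrays, and comparisons across tissues on all 40. Arrays hold no count of molecules, so their number limits the precision. The code was tested on simulated data.

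The members, classes and marker lists were chosen with earlier results of these data known. Named genes were the markers SLC34A1 and SLC12A1 (the marker SLC5A2 was not analysed here), the 3 largest rises and falls among calls without overlap in each comparison, and up to 4 members per class with the smallest adjusted p, or the brightest where none was called. SLC38A9 at 24 h in CMJ, SLC4A2, SLC22A7, SLC7A7 and the probes of SLC7A8 were named after their values were seen. Alternatives were 75th percentile scaling, normexp (offset 50), a filter on dim probes, the deposited values, identifiers averaged by symbol, a slide term, the replicate number as a block, the share of spots well above background as a covariate, and each array left out. One more, WI+CS6h-C without its 2 lowest-share arrays, was chosen after seeing the data.

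The labels do not say whether equal numbers mark 1 kidney. Deviations of same-numbered arrays correlated above 0.1 in all 5 pairs between WI+CS24h-CMJ and WI+CS6h-CMJ (0.332 to 0.61) and between the tissues in WI+CS6h (0.134 to 0.457) and WI+CS24h (0.145 to 0.482), but in no other comparison.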

Additional observations from a re-analysis of the deposited data

Results flagged for a closer look

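Of 112 groups of 5 arrays examined over 14 measures (log2 signals of 13 members and the median over members), 10 held an array whose gap to the next one exceeded 0.71 of the group's range. Chance marks about 1 in 20 groups.

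In Ctl-C replicate 5 stood apart for 2 members, with SLC12A1 at 10.29 against 9.42 to 9.53 on the others and SLC26A4 at 4.19 against 4.83 to 5.08. WI+CS24h-C replicate 4 stood apart for 2 members as well, with SLC26A7 at 4.29 against 5.64 to 6.03 and SLC25A36 at 6.29 against 5.80 to 5.90. The lowest SLC22A2 signal of WI+CS24h-CMJ was 9.84 in replicate 3 against 10.22 to 10.36. The highest SLC38A1 signal of Ctl-C was 5.81 in replicate 2 against 5.65 to 5.68. SLC7A2 was at 5.76 in WI-C replicate 3 against 6.62 to 6.96. SLC5A1 was at 7.19 in WI+CS6h-C replicate 5 against 6.59 to 6.76. SLC26A4 was at 1.19 in WI+CS6h-CMJ replicate 4 against 3.10 to 3.49. SLC34A1 was at 14.01 in WI-CMJ replicate 1 against 14.36 to 14.48.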

How the results depend on the processing

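No call changed direction under any alternative. Of the 60 calls of a member in a comparison, 60 were kept with the filter on dim probes and with identifiers averaged, 59 with the replicate block, 48 with 75th percentile scaling, 47 with the share covariate, 28 with the slide term, 26 on the deposited values and 18 with normexp; 7 were kept under all of these and 36 in every fit without 1 array. The median ratio of the log2 change to the reported one was 0.373 with normexp, 0.632 on the deposited values and 0.999 with the slide term. By adjusted p alone, with no fold threshold, 54, 51 and 29 calls were kept. The cause was not tested.

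For the 4 cold storage comparisons with Ctl (WI+CS6h-C, WI+CS24h-C, WI+CS6h-CMJ and WI+CS24h-CMJ, reported 6, 5, 9 and 9 calls), normexp gave 2, 2, 3 and 2 calls and the deposited values 2, 3, 3 and 2. The 75th percentile gave 3 in both cortex comparisons, the dim filter 11 in WI+CS6h-C, the slide term 10 in WI+CS6h-C, 1 in WI+CS24h-C and 3 in WI+CS24h-CMJ, and the share covariate 3 in WI+CS6h-C. WI+CS6h-C without its 2 lowest-share arrays gave 3. Against WI (reported 4, 3, 7 and 7), normexp gave 2, 2, 0 and 0, the deposited values 1, 1, 3 and 4, and the slide term 0 and 1 in cortex and 0 at 6 h in CMJ. The share covariate gave 6 in WI+CS24h-C and 3 in WI+CS6h-CMJ, and the dim filter 5 in WI+CS24h-C. Between control tissues (reported 3) the slide term gave 0, and over the 4 conditions (reported 7) normexp gave 2.

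With the replicate block the control tissues gave 11 calls against 3 and WI+CS24h-C versus WI-C 5 against 3; the numbers were not shown to pair these arrays. The block moved no other count by over 1.5 times.

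Leaving out 1 array gave 4 to 20 calls in WI+CS6h-C (20 without its replicate 4), 3 to 7 in WI+CS24h-C (3 without its replicate 4), 6 to 12 in WI+CS6h-CMJ, and 5 to 10 in WI+CS24h-CMJ (5 without Ctl-CMJ replicate 4 or its own replicate 2). Against WI the ranges were 3 to 5, 3 to 4, 3 to 9 (3 without WI-CMJ replicate 3) and 4 to 9 (4 without WI-CMJ replicate 5). Between control tissues it was 0 to 4 (0 without Ctl-CMJ replicate 5, 1 without Ctl-C replicate 2 or 3) and over the 4 conditions 6 to 7. For WI against Ctl it was 0 to 1 in both tissues. The 24 h against 6 h comparisons and the interactions stayed at 0 to 0.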
